A study of Mus musculus with 18 samples.

Results

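Among 16461 DNA inserts assayed for the RNA they give from one fixed genomic place, 124 had 2 or more spliced forms listed and enough genomic DNA reads to be followed. They were chosen from the RNA count table as every insert with at least 2 rows named as its spliced forms, with a number outside 12001 to 12500 and a mean of at least 20 genomic DNA (gDNA) reads over 9 libraries. Of 2404 inserts with any spliced form listed, 145 had 2 or more. Of these, 17 had a number in 12001 to 12500 and 4 fell below the gDNA minimum. The 124 inserts are 0.753% of all inserts and 5.16% of those with a form. They carry 254 forms, with 2 forms in 118 inserts and 3 forms in 6.

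The assay, INSERT-seq, placed a pool of sequences in mouse embryonic stem cells of a female CAST/129 hybrid background. The genotype, shared by all groups, carries TagBFP2 (label Oct4C::TagBFP2), the pool of inserts (label Oct4ua157::INSERT-seqlibrary) and the mKate2 reporter (label Oct4ua172::mKate2), each marked 129. The pool thus lies in the region of the Oct4 upstream antisense RNA, ahead of mKate2. The 3 groups were cells given siNT, which has no target, siWDR82 or siZC3H4. Each had 3 cultures, named biological replicates in the series description, and from every culture came 1 library of RNA and 1 of gDNA. The protocol gives 30 nM of siRNA for all, and the labels repeat it apart from 31 nM for siWDR82 replicate 2 and 32 nM for replicate 3. Oct4 is the product of Pou5f1, a pluripotency gene on chromosome 17 from 35506032 to 35510777 (GRCm38). Each insert is known here by its number, and its sequence, splice sites and source gene were not used here.

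In splicing, the spliceosome joins a donor site to an acceptor site downstream and removes the intron between them. Where an RNA offers more than 1 donor or acceptor, it can be cut in different ways, and each way leaves its own product. WDR82 and ZC3H4 are subunits of the Restrictor complex, which stops RNA polymerase II early on many noncoding transcripts, upstream antisense RNAs among them. Recognition of a donor site by U1 snRNP is known to favour continued transcription. The count tables give, for each insert, the reads of the unspliced RNA and of each form, so the share of a form among all spliced reads of its insert is a measure of choice between products that does not depend on how much of the insert is in the cell pool.

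The depth was 32714145 to 53504904 reads per RNA library and 4584881 to 11510602 per gDNA library. The 124 inserts together gave 53703 to 99079 spliced reads per culture, and their median gDNA count was 129 to 451 per library. Their mean gDNA count over libraries ran from 30.7 to 4200, with a median of 348. Just inside the gDNA minimum were sequence_08472 with a mean of 30.7 reads and sequence_13991 with 31.1, and just outside were sequence_07414 with 16.8 and sequence_01839 with 12.2. No molecular identifiers are mentioned in the protocols, so reads include PCR duplicates. Limits set by a count of 0 cover counting error only. The SEs and intervals of log2 changes were worked back from the log2 change and the F statistic of edgeR's quasi-likelihood test. They include the spread between cultures and are rough where a form had 0 reads in a group.

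Most of these inserts gave spliced RNA, though not all listed forms were seen. Of the 254 forms, 32 had 0 reads in all 9 RNA libraries, 202 had a mean of at least 5 reads and 102 a mean of at least 100. No culture gave 20 spliced reads for 6 inserts, and 3 of them had 0 in all cultures. The medians over the 124 inserts were 23.4% of reads spliced, 159 spliced and 518 unspliced reads per culture. The 1744 inserts with a single form under the same rules had a median of 10.7% spliced, with 93.8 spliced and 701 unspliced reads at a similar median gDNA count of 341. At least 20 spliced reads in all 9 cultures were found for 63 of the 124 inserts (50.8%) and for 677 of the 1744 with 1 form (38.8%). The 124 were chosen by their number of listed forms, and their spliced reads are summed over those forms. What part this has in the differences was not tested.

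Some inserts favoured 1 product and others were divided. The leading form of an insert is here the one with the highest mean percent of its spliced reads over cultures with at least 20. Among the 118 inserts with such a culture, the leading form held under 60% in 23, from 60 to 80% in 31, from 80 to 95% in 26, from 95 to under 100% in 14 and 100% in 24. The leading form was the one numbered 1 in 68 inserts, 2 in 48 and 3 in 2, and what the authors' numbering follows was not given in the sources used here. In the 63 inserts with 20 or more spliced reads in all cultures, the leading form held under 60% in 14 and 100% in 5. Among these 63 it held under 80% in 32 and 80% or more in 31. The median leading percent over these was 79.3.

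The insert with the most spliced reads, sequence_13497, was almost wholly spliced, with 98.6% of its reads in the 2 forms. It gave 3755 to 17138 spliced reads per culture. Its first form held 94.0, 92.3 and 86.1% of spliced reads in the siNT cultures, 92.7, 69.3 and 89.6% after siWDR82, and 93.5, 90.5 and 86.8% after siZC3H4. The first form led in every culture, and siWDR82 replicate 2 stood below the 8 others. The means were 90.8 ± 4.15%, 83.8 ± 12.7% and 90.3 ± 3.34% (SD, n = 3), so the 3 groups overlapped.

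In sequence_09001, with 2911 to 9867 spliced reads per culture, the second form was a minor product everywhere. The first form held 98.8, 96.6 and 92.5% with siNT, 93.0, 94.0 and 88.5% after siWDR82, and 93.9, 89.5 and 91.4% after siZC3H4. Of the siNT cultures, the lowest lay within the range of both knockdowns. In sequence_12533, with 97.0% of reads spliced, the first form held 97.4, 89.1 and 89.9% with siNT, 91.9, 93.9 and 93.1% after siWDR82, and 90.0, 93.5 and 87.9% after siZC3H4. Here the first siNT culture was the highest of all 9 and the other siNT cultures were among the lowest, so no siRNA stood apart.

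Other deeply read inserts were divided between products of similar abundance. For sequence_01519 (1037 to 11758 spliced reads), the first form held 58.5, 59.4 and 55.0% with siNT, 52.1, 57.3 and 60% after siWDR82, and 74.9, 48.6 and 62.8% after siZC3H4. Cultures with siNT and siWDR82 stayed within 8 points of each other, while those with siZC3H4 spanned the full range. Unspliced reads of the same insert ran from 0 to 2641 per culture.

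In sequence_00042, the first form held 49.9, 69.2 and 74.9% with siNT, 76.7, 74.2 and 73.0% after siWDR82, and 74.6, 72.7 and 65.5% after siZC3H4. One culture, siNT replicate 1, had both forms at nearly equal reads and stood apart from the 8 others. The siWDR82 mean of 74.6 ± 1.86% lay above the siNT mean of 64.7 ± 13.1% (SD, n = 3), a difference smaller than the siNT spread. In sequence_12927, the first form held 72.1, 84.6 and 63.5% with siNT, 75.5, 67.6 and 58.6% after siWDR82, and 70.9, 59.0 and 52.0% after siZC3H4. With means of 73.4 ± 10.6%, 67.2 ± 8.50% and 60.6 ± 9.55% (SD, n = 3), the cultures of all 3 siRNAs overlapped.

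For sequence_01731, a mostly unspliced insert with 30.8% of reads spliced, the first form held 71.6, 61.0 and 56.0% with siNT, 45.7, 60.1 and 57.6% after siWDR82, and 48.9, 68.5 and 55.2% after siZC3H4. Its second form led in 1 siWDR82 and 1 siZC3H4 culture, and the groups overlapped. Of the 6 most deeply read inserts whose leading form held under 80%, the widest spread was in sequence_13287, where the second form held 42.9, 63.5 and 92.0% in the siNT cultures, against 58.0, 73.0 and 65.1% with siWDR82 and 71.6, 70.9 and 74.8% with siZC3H4. Alone, the siNT cultures spanned a range wider than all 6 knockdown cultures.

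All 6 inserts with 3 listed forms showed at least 2 products. In sequence_12728, sequence_13369 and sequence_13990 all 3 forms were well read. In sequence_13990 the mean percents of forms 1, 2 and 3 were 53.1 ± 13.3, 34.2 ± 9.46 and 12.7 ± 12.3 with siNT, 39.0 ± 18.0, 37.7 ± 5.56 and 23.3 ± 12.5 after siWDR82, and 30.5 ± 15.2, 48.8 ± 14.7 and 20.8 ± 23.3 after siZC3H4 (SD, n = 3). Its form 3 ranged from 0% in 1 siZC3H4 culture to 46.0% in another. In sequence_13369 form 3 held 21.3, 0.765 and 80.3% of 445, 523 and 1506 spliced reads in the 3 siNT cultures, so a different form led in siNT replicate 3 than in the other two. In sequence_12728 the first form held 100% of 342 reads in siNT replicate 2 and 0% of 133 reads in siWDR82 replicate 2.

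In 2 of the 3-form inserts only 2 forms were read. In sequence_13988 form 3 had 0 reads in every culture, and form 1 held 59.5, 83.2 and 38.2% with siNT, 42.3, 68.9 and 49.7% after siWDR82, and 43.1, 70.7 and 56.1% after siZC3H4. In sequence_05985 form 1 had 0 reads in every culture. Its form 3 held 100, 0 and 1.61% in the siNT cultures, on 59 to 64 spliced reads each, and 39.4 to 74.3% in the 6 knockdown cultures. Single siNT cultures therefore went to opposite extremes, while each knockdown culture showed both products. The sixth, sequence_09649, had a mean of 22.7 spliced reads and showed all 3 forms in 4 of its cultures.

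The share of a form was far less alike between cultures than counting error allows. It was followed in the 53 of the 63 well-read inserts whose leading form held under 99%. The SD of the leading percent between cultures of the same siRNA had a median of 12.2 points (1.41 to 36.7), against a median of 1.69 points expected from counting reads. The SD was above the counting value in 52 of 53 inserts, at most 5 points in 7 and over 20 points in 10. A chi-square of form reads over cultures of one siRNA was divided by its degrees of freedom, which gives about 1 for counting error alone. It had a median of 50.9 and was over 10 in 48 inserts.

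The spread was narrower in more deeply read inserts and stayed above the counting level. The median SD was 31.5 points in the 10 inserts with under 200 spliced reads per culture, 12.5 points in the 25 with 200 to 1000 and 8.01 points in the 18 with 1000 or more. The counting values for these were 3.94, 1.77 and 0.930 points. On the log2 scale, with 0.5 added to each count, the choice between the leading form and the rest had a median SD of 1.24 between cultures and the ratio of spliced to unspliced reads 0.93. The choice varied more than the spliced ratio in 35 of 53 inserts. This was not so by the medians of the 18 inserts with 1000 or more reads, at 0.84 for choice and 0.90 for the spliced ratio. The medians were 1.62 and 0.87 with 200 to 1000 reads, and 2.84 and 1.48 with under 200.

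The leading form was the same in every culture in most inserts with a dominant form, and in a minority of divided ones. It led in all 9 cultures in 28 of the 31 inserts where it held 80% or more, and in 10 of the 32 where it held less. This contrast follows in part from the split, since the mean percent was taken over the same cultures. Of the 63 well-read inserts, 38 had the same leading form in all 9 cultures, 9 in 8, 3 in 7, 5 in 6, 7 in 5 and 1 in 4. Across the 63 inserts, the percent of form 1 in 2 cultures of the same siRNA had Pearson's r of 0.719 to 0.899 and Spearman's rho of 0.736 to 0.888 over the 9 pairs of cultures, as a description across inserts read in the same libraries. The median insert differed by 3.36 to 8.47 points between such cultures.

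One insert was an exception to the excess spread, and was picked after its values were seen. In sequence_10148 the first form held 62.1, 63.3 and 61.9% with siNT, 64.2, 61.5 and 59.7% after siWDR82, and 59.0, 58.3 and 57.7% after siZC3H4, on 163 to 1069 spliced reads per culture. All 9 values lay within 7 points. Its chi-square was 0.428 per degree of freedom, and its SD of 1.41 points was below the 2.37 points of counting error. The ratio of spliced to unspliced reads of the same insert had an SD of 0.46 on the log2 scale, against 0.086 for the choice of form. Even so, all 3 siZC3H4 cultures lay below all siNT cultures, at 58.3 ± 0.658% against 62.4 ± 0.750% (SD, n = 3). The log2 change of -0.25 (SE 0.59) in form 1 over form 2 had an adjusted p of 0.980 in edgeR's quasi-likelihood test, whose SE draws on the spread of all choices. The next most even insert, also picked after its values were seen, was sequence_11027, with a first form at 57.1 to 66.4% and a chi-square of 4.14 per degree of freedom.

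A listed alternative was never read in some well-read inserts, of which the one shown, with its neighbours by number, was picked after its values were seen. In sequence_12537, with a mean of 621 spliced reads, form 1 took all reads in every culture. In those neighbours, form 1 held a mean of 91.8% (sequence_12533) and 92.3% (sequence_12535). For sequence_12535 it held 96.0, 85.7 and 88.2% with siNT, 90.0, 97.6 and 100% after siWDR82, and 91.9, 83.5 and 98.0% after siZC3H4. These 3 inserts were alike in their leading form and in being over 92% spliced. In all, 18 of the 124 inserts fell in 8 runs of members at most 2 numbers apart, and whether neighbouring numbers share sequence was not analysed here. Neighbours in other runs were alike in some respects and unlike in others. In percent spliced, sequence_13716 (72.2%) and sequence_13717 (4.79%) differed, while form 1 led in both, at 99.4 and 100%. The reverse held for sequence_13458 and sequence_13459, at 4.28 and 4.50% spliced, where form 1 led in the first and form 2 in the second.

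Inserts with several forms were spread over the numbering in proportion to inserts with any form. Above the gDNA minimum, they made up 6.60, 7.41 and 6.56% of the inserts with a form in numbers 1 to 4000, 4001 to 8000 and 8001 to 12000, and 6.33 and 6.83% in 12501 to 14000 and 14001 to 16461. The range 12501 to 14000 held 47 of the 124, or 3.44% of all its inserts, against 0.462 to 0.700% in the 4 other ranges. That range also held 742 of the inserts with any form, out of 1366 inserts.

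The first question for the knockdowns is whether depletion of either subunit shifted the choice between products. The mean leading percent did not separate the siRNAs, and its median was lower with siZC3H4. The mean leading percent over the 63 well-read inserts was 78.1 ± 2.88 with siNT, 77.5 ± 3.10 with siWDR82 and 77.3 ± 1.53 with siZC3H4 (SD, n = 3). The median was 91.1, 84.3 and 84% in the siNT cultures, 86.8, 77.8 and 87.0% after siWDR82, and 82.3, 77.2 and 82.0% after siZC3H4. All siZC3H4 medians lay below all siNT medians, at 80.5 ± 2.88 against 86.5 ± 4.03 (SD, n = 3), and those of siWDR82, at 83.9 ± 5.29, overlapped both. From siNT to siWDR82 the leading percent was lower in 29 inserts, higher in 27 and equal in 7, with a median difference of 0 points (-41.4 to 30.8). From siNT to siZC3H4 it was lower in 35, higher in 21 and equal in 7, with a median of -0.764 points (-39.0 to 34.8). Both comparisons use the same siNT cultures.

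Many single differences were large and few exceeded the spread between cultures. With siWDR82, 21 of the 63 inserts moved by over 10 points, and the difference was over 2 SD (pooled over both groups) in 2. With siZC3H4 these numbers were 17 and 3. The 3 siWDR82 cultures all lay below the 3 siNT cultures in 6 inserts and above them in 0, where 9.33% of all 75 inserts with this depth lay below and 0% above. The 3 siZC3H4 cultures all lay below in 4, against 6.67% of all, and above in 1, against 1.33%. An exact two-sided permutation test of 3 against 3 cultures cannot go below p = 0.1, so none of these passes a threshold of 0.05 on its own. In 0 inserts did the leading form switch between siRNAs with all 3 cultures of each siRNA in accord.

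A model of choice gave 0 calls, which does not show an unchanged choice. On simulated counts with the fitted spread, it recovered 1 of 10 changes of 4-fold and 4 of 10 of 16-fold. Reads of a form were set against reads of the other forms of its insert in the same library with edgeR's quasi-likelihood test, which covered 88 choices in 78 of the 124 inserts among 103 choices in the table. After Benjamini-Hochberg adjustment 0 members passed 0.05 for siWDR82 against siNT, siZC3H4 against siNT or siZC3H4 against siWDR82, and 0% of all choices did. At an unadjusted p under 0.05 there were 4, 2 and 0 choices of members, with 4.85, 2.91 and 2.91% of all choices. The median log2 change of members was -0.43, -0.15 and -0.0069, beside -0.28, -0.15 and -0.032 over all choices. DESeq2 called 2 choices of members for siWDR82 and 1 for siZC3H4, and limma on log2 ratios with a pseudocount of 0.5 called 1 for each, among them sequence_13985 each time, beside 1.94 and 0.971% of all choices by DESeq2 and 0.971% by limma. With a pseudocount of 2 limma called 0. DESeq2 scaled the reads of a form and of the other forms separately, where edgeR used 1 size for both counts of a library.

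The lowest p for both knockdowns belonged to sequence_13985, an insert with 53.2% of its reads spliced. Its second form had 0 of 72, 274 and 76 spliced reads in the siNT cultures. With siWDR82 it had 202 of 860, 51 of 174 and 59 of 211 reads, and with siZC3H4 85 of 363, 105 of 315 and 25 of 318. The second form was thus read in every knockdown culture and in none with siNT. Its share was 26.9 ± 3.05% with siWDR82 and 21.5 ± 12.8% with siZC3H4 (SD, n = 3).

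By counting error alone, 0 of 422 reads over the pooled siNT cultures allows a share of up to 0.711% (3 reads over the group). The spread between cultures, with a chi-square of 16.4 per degree of freedom for this insert, is not in that limit. Against that limit the pooled share of 25.1% with siWDR82 was at least 35.3-fold higher, and that of 21.6% with siZC3H4 at least 30.4-fold higher. The fitted log2 changes of the first form over the second were -8.17 (SE 1.38) and -7.56 (SE 1.39), sizes that depend on how 0 counts are treated and are no bounds. Their adjusted p in edgeR's quasi-likelihood test was 0.0688 and 0.109, above the threshold. The alternatives gave adjusted p-values from 0.000169 (DESeq2) to 0.573 (replicate number as a block) for siWDR82, and from 0.00108 (DESeq2) to 0.985 (siNT and siZC3H4 libraries alone) for siZC3H4.

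The siNT group also had the fewest spliced reads of sequence_13985, with 422 against 1245 and 996, while gDNA reads were 1165 against 952 and 1112. Unspliced reads were 151, 0 and 280 with siNT, 334, 173 and 217 after siWDR82, and 572, 283 and 335 after siZC3H4. What part this lower depth has in the 0 reads of form 2 was not tested. The direct comparison of siZC3H4 with siWDR82 gave a log2 change of 0.61 (95% interval -2.13 to 3.34), so the data do not separate the knockdowns for this insert.

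The second lowest p for siWDR82 was that of sequence_05840, which was 98.1% spliced with 1295 to 7157 spliced reads per culture. Its first form held 86.6, 85.5 and 78.6% with siNT, 71.4, 72.9 and 72.3% after siWDR82, and 73.8, 85.0 and 82.0% after siZC3H4. All siWDR82 cultures lay below all siNT cultures, and the siZC3H4 cultures overlapped both. The log2 change of form 1 over form 2 with siWDR82 was -0.999 (SE 0.36), at an adjusted p of 0.878 in edgeR's quasi-likelihood test. The difference between 83.6 ± 4.32% and 72.2 ± 0.761% (SD, n = 3) was larger than the SD of either group, and it did not pass this test.

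In sequence_15738 the products did not mix within a library. All 74 and 56 spliced reads of siNT replicates 1 and 3 were form 1, and all 14 and 19 reads with siWDR82 and all 23 and 95 reads with siZC3H4 were form 2. The other culture of each siRNA had 0 spliced reads. Against 3 reads over the siNT group, form 2 was at least 43.3-fold higher in share with siZC3H4 by counting error alone. The spread between cultures is not in that limit. The adjusted p was 0.878 for siWDR82 and 0.980 for siZC3H4 (edgeR's quasi-likelihood test), and with 2 cultures per siRNA the separation has little replication.

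For siZC3H4 against siWDR82 the 2 lowest p belonged to sequence_03339 and sequence_02758. The first form of sequence_03339 held 12.2, 17.5 and 5.52% with siNT, 1.38, 0.876 and 6.71% after siWDR82, and 16.0, 2.32 and 16.5% after siZC3H4. That of sequence_02758 held 0, 0 and 12.6%, then 26.6, 69.5 and 13.0%, then 0, 0 and 7.89%. In the first insert the minor form was lowest in 2 of 3 siWDR82 cultures, and in the second it was highest in all 3. Neither passed for siZC3H4 against siWDR82, with log2 changes of 2.33 (95% interval -0.21 to 4.88) and -5.99 (-12.94 to 0.95). DESeq2 called sequence_02758 for siWDR82 against siNT at an adjusted p of 0.00530, against 0.878 with edgeR's quasi-likelihood test and 0.244 to 0.972 over the fits without 1 culture each.

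In 2 inserts all 6 knockdown cultures lay below all siNT cultures, where 2.67% of all 75 inserts did. They were sequence_13985 and, picked after its values were seen, sequence_03452. In sequence_03452 the first form held 100, 94.4 and 92.2% with siNT, 86.8, 88.4 and 47.4% after siWDR82, and 66.5, 76.3 and 90.3% after siZC3H4. Only a narrow gap divided the highest knockdown culture from the lowest siNT culture. The log2 changes of -3.30 (SE 1.93) and -3.26 (SE 1.89) had adjusted p of 0.946 and 0.980 (edgeR's quasi-likelihood test).

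The other inserts set apart in 1 knockdown were also picked after their values were seen. In sequence_03715 the leading second form held 99.4, 71.9 and 76.5% with siNT and 66.6, 55.2 and 68.9% with siWDR82, and in sequence_15528 it held 85.0, 52.4 and 74.3% against 47.7, 29.9 and 50%. In sequence_08937 the first form held 95.6, 82.9 and 97.2% with siNT and 82.3, 81.7 and 80.4% with siZC3H4. The 1 insert above siNT with siZC3H4, sequence_13579, had a second form at 56.9, 37.0 and 45.6% with siNT and 64.2, 58.7 and 59.4% with siZC3H4. In each, a siNT culture came close to the knockdown cultures.

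Both forms of an insert can also change together against its unspliced RNA. Of 1896 forms tested this way in the table, 198 belonged to 114 of the inserts with several forms. By edgeR's quasi-likelihood test with Benjamini-Hochberg adjustment 0 of these passed in either knockdown, beside 0.105% of all forms with siWDR82 and 0.158% with siZC3H4. At an unadjusted p under 0.05 there were 10 and 8, beside 6.28 and 4.11% of all forms. DESeq2 called 8 with siWDR82 (3 higher, 5 lower) and 6 with siZC3H4 (5 higher, 1 lower), beside 5.33 and 3.48% of all forms. It scaled the form and unspliced counts of a library separately, where edgeR used 1 size for both, so its changes are relative to the typical form. Its median log2 change over all forms was 0.23 and 0.17, against -0.29 and -0.028 with edgeR.

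The median log2 change of a form over unspliced RNA was -0.11 with siWDR82 and 0.31 with siZC3H4 for these 198 forms, and -0.29 and -0.028 over all forms. In the 76 inserts with 2 tested forms, both forms were above 0 with siWDR82 in 23, both below in 21 and opposite in 32. With siZC3H4 both were above in 33, both below in 20 and opposite in 23. The second form of sequence_13985 had changes of 8.06 (SE 1.62) and 6.87 (SE 1.56), and its first form -0.15 (SE 2.73) and -0.69 (SE 2.71). Of these only the second form was called by DESeq2, in both knockdowns, while edgeR's adjusted p for it was 0.580 and 0.686.

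DESeq2 also called forms of 2 further inserts shown here, picked after their values were seen. In sequence_06556, called in both knockdowns, form 1 had 0 reads in all siNT cultures, 40, 1 and 19 after siWDR82, and 25, 15 and 37 after siZC3H4, beside 496 to 2255 unspliced reads per culture. In sequence_02713, where DESeq2 called both forms lower with siWDR82 and form 2 lower with siZC3H4, form 2 had 52, 53 and 80 reads in the siNT cultures with 0 unspliced reads in each. The knockdown cultures had 25 to 169 reads of that form and 10 to 44 unspliced reads. The groups of this insert differed in unspliced reads and overlapped in reads of form 2.

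More of the inserts showed spliced reads in knockdown cultures, and by the means of the groups more of them showed over 1 product. Members with 0 spliced reads numbered 28, 29 and 25 with siNT, 15, 17 and 23 after siWDR82, and 17, 15 and 15 after siZC3H4. All siNT cultures lay above all knockdown cultures, at 22.0 ± 1.68% of the 124 inserts against 14.8 ± 3.36% and 12.6 ± 0.931% (SD, n = 3). Among inserts with 1 form the values were 38.8 ± 1.51%, 33.0 ± 0.232% and 32.9 ± 1.39%, with the same order of cultures. At least 2 forms were read in 48, 51 and 62 members with siNT, in 66, 66 and 61 after siWDR82, and in 68, 70 and 63 after siZC3H4. In this count siWDR82 overlapped siNT, and all siZC3H4 cultures lay above it. Total RNA reads were 42008816 to 46663931 per siNT library and 32714145 to 53504904 over the knockdown libraries. Spike-in reads among them were 1031316 to 1714372 per siNT library and 433920 to 1656748 over the knockdown libraries. What part depth has in these numbers was not tested.

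Among members with at least 20 spliced reads, 55.8, 57.5 and 64.6% showed 2 or more forms in the siNT cultures. The share was 66.3, 65.3 and 65.9% after siWDR82, above all siNT cultures, and 66.3, 69.4 and 60% after siZC3H4, which overlapped siNT. The means were 59.3 ± 4.66%, 65.9 ± 0.515% and 65.2 ± 4.79% (SD, n = 3). The larger number of inserts with several products went with a larger number that had spliced reads at all. With siWDR82 it also went with a higher share among those with 20 spliced reads. What part each has was not tested. Summed over the 124 inserts, spliced reads were 31.5, 27.6 and 31.8% of all their reads with siNT, 26.9, 25.6 and 26.7% after siWDR82, and 26.7, 31.5 and 26.4% after siZC3H4. All siWDR82 cultures lay below siNT and siZC3H4 overlapped it. For all 2259 inserts with 1 form the means were 46.2 ± 2.62%, 35.1 ± 1.55% and 38.7 ± 2.3% (SD, n = 3). That set has no gDNA minimum and includes numbers 12001 to 12500, so its level is not a like comparison with the 124.

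The level of these inserts, RNA over gDNA with unspliced and spliced reads summed, was tested for all 124 among 15364 inserts. The main model took the RNA and gDNA libraries of a culture as independent. With edgeR's quasi-likelihood test and Benjamini-Hochberg adjustment 0 of the 124 passed in either knockdown, beside 0.696% of all inserts with siWDR82 and 0.351% with siZC3H4. At an unadjusted p under 0.05 there were 17 and 9 members, beside 12.8 and 9.39% of all. DESeq2 called 1 and 0 members, beside 3.31 and 1.8% of all. Their median log2 change was -0.41 with siWDR82 and -0.30 with siZC3H4, beside 0.062 and 0.061 over all inserts, and with RNA scaled to the spike-ins it lay above 0, at 0.86 and 0.66 beside 1.34 and 1.03. Relative to the median of all inserts, the median level of the 124 (log2) was 0.0244, 0.615 and 0.672 in the siNT cultures. The siWDR82 cultures had -0.0933, -0.0229 and -0.0869, and those given siZC3H4 had -0.163, -0.125 and 0.168. In the same order of siRNAs, the means were 0.44 ± 0.36, -0.068 ± 0.039 and -0.040 ± 0.18 (SD, n = 3). Every siWDR82 culture lay below every siNT culture. Replicate 3 of siZC3H4 lay above siNT replicate 1, so these 2 groups overlapped. Replicates 2 and 3 of siNT stood well above its replicate 1.

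RNA and gDNA libraries of a culture varied together, and with the culture as a block 3 of the 124 fell with siWDR82 and 1 with siZC3H4, beside 3.12 and 0.397% of all inserts (edgeR, adjusted p under 0.05). Those with siWDR82 were sequence_01341, sequence_01731 and sequence_13662, whose log2 changes in the model without the block were -1.08 (SE 0.32), -1.33 (SE 0.46) and -1.47 (SE 0.56). The one with siZC3H4 was sequence_13497, at -2.72 (SE 0.84). Without siNT replicate 1, 1 insert passed for siWDR82 and 4 for siZC3H4, sequence_13497 in both, beside 1.37 and 1.6% of all inserts. In sequence_01341, which was 4.01% spliced, the first form held 69.1 ± 5.49%, 69.8 ± 5.11% and 64.4 ± 7.61% of spliced reads with siNT, siWDR82 and siZC3H4 (SD, n = 3), so the cultures overlapped in their choice of form.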

How the data were processed

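The authors deposited read counts per insert and spliced form, 1 table for RNA and 1 for gDNA, as raw counts with no normalization. The submitters' processing notes name build mm10 and the tools STAR, SAMtools, Bowtie2 2.3.4.3 and cutadapt 1.14. How forms were defined was not given in the sources used here. Header names stand 1 column left of their values because the name column has none. The row of unassigned reads holds 0 reads.

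Percents per culture are means ± SD over 3 cultures with at least 20 spliced reads. The main test was edgeR 4.0.16 quasi-likelihood (R 4.3.3) on the counts with a term per library, form, and form by siRNA over all 9 RNA libraries, for choices with a mean of at least 5 reads on each side and 20 together. The same terms compared each form with unspliced reads. A 2-form insert gave 1 choice, a 3-form insert 1 per form. The level used 6 group means with TMM factors within RNA and within gDNA, for inserts whose mean was 20 gDNA and 5 RNA reads or more. It had no term for the culture that RNA and gDNA share. Benjamini-Hochberg adjustment ran over all features tested, at 0.05. Intervals are 95%. Code was tested on simulated counts with changes set in the siWDR82 libraries. With the fitted spread, the test of forms over unspliced RNA recovered 1 of 100 changes of 4-fold and 14 of 100 of 16-fold. The level test recovered 20 and 67 of 100.

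Alternatives were DESeq2 1.42.0, limma 3.58.1 on log2 ratios, count and gDNA minimums, scaling, blocks, the libraries fitted, pooling, and each culture left out. Inserts named were the 6 with most spliced reads, the 6 with most among those whose leading form held under 80%, those with most forms, the 2 lowest p per comparison, those with a switched leading form, and those beside the gDNA minimum; all other inserts named were picked after their values were seen. The inserts and lists were chosen with earlier results of these data known.

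Replicate numbers were not taken to pair cultures across siRNAs, since for no measure was r over 0.1 between every pair of same-numbered cultures. It ran from -0.263 to 0.0982 for form choice, 0.0187 to 0.143 for RNA level and -0.00409 to 0.200 for gDNA level, where all pairs of replicate 1 were over 0.1. RNA and gDNA of 1 culture deviated together in 9 of 9 (r 0.290 to 0.473). No 2 libraries of a group agreed within sampling noise (chi-square per degree of freedom at least 32.1).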

Additional observations from a re-analysis of the deposited data

How the results depend on the processing

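The main tests called 0 of the 124 inserts, and most alternatives did too. For form choice, limma with a pseudocount of 0.5 called 1 for each knockdown, and DESeq2 called 2 for siWDR82 and 1 for siZC3H4. For forms over unspliced RNA, DESeq2 called 8 and 6. For the level, DESeq2 called 1 for siWDR82, and the replicate block that pairs RNA and gDNA of a culture called 3 and 1. Leaving out 1 culture in turn called 0 to 1 members with siWDR82 and 0 to 4 with siZC3H4, where only the fits without siNT replicate 1 called any. Those 2 fits called 1.37 and 1.6% of all inserts, and all such fits 0.13 to 1.63% and 0.0783 to 1.6%. Leaving out 1 culture called 0 members for choice and for forms over unspliced RNA. With the replicate number as a block, form choice gave 0 calls in each comparison, with a lowest adjusted p of 0.573 for siWDR82 and 0.749 for siZC3H4. The causes of these differences were not tested. No value changed direction past a threshold. A minimum of 100 spliced reads per culture left 41 inserts in place of 63, with a median leading percent of 78.2 in place of 79.3. The median SD between cultures was above the counting value in each class of depth, and what part PCR duplicates have in it was not tested.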
